A study of Mus musculus with 13 samples.

Results

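NRF2, the transcription factor encoded by Nfe2l2, and genes of the antioxidant and glutathione system that it is known to control were followed in mouse brain. The set of 10 genes holds Nfe2l2, its inhibitor Keap1, and Slc7a11, Gclc, Gclm, Gsr, G6pdx, Txnrd1, Srxn1 and Nqo1. They were chosen by name, with earlier results of these data known, and each matched 1 of the 37636 gene IDs of the deposited table. All 10 reached a mean of 1 FPKM (fragments mapped to a gene, scaled to its length and to the size of the library) over the libraries and so stood among the 13905 genes tested. The 6-OHG group had 4 libraries from mice kept at 8000 m for 24 h and given 6-OHG. The Mod group had 5 libraries from mice with the same altitude and time and no 6-OHG, and the Con group had 4 libraries from mice in the normal condition with no 6-OHG. All mice were male Balb/c of 6 to 8 weeks with no genetic change named. The compound 6-OHG is known here only by that code, with neither dose nor time of dosing, and the brain region is not named. Nothing says that replicates of a group are separate animals, so p-values may measure only technical spread.

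NRF2 is held in the cytoplasm and marked for breakdown by KEAP1, whose reactive cysteines sense oxidants and electrophiles. Once released, NRF2 pairs with a small MAF protein and binds antioxidant response elements in the promoters of its targets. These targets make glutathione, the main small thiol of the cell, keep it and thioredoxin reduced with NADPH, and remove quinones. In the brain, astrocytes are known for high activity of this pathway and for handing glutathione precursors to neurons.

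The files hold no read totals, and only 3.82% to 6.17% of the low values examined in each library were whole multiples of its commonest low value, so the depth behind a value is unknown. FPKM columns summed to between 268208 and 312908, and 20.6% to 28.7% of a sum came from genes of the mitochondrial genome. Neuron markers, a check of the labelled tissue, were present in every library, with sums of 946 to 1069 FPKM in 6-OHG, 916 to 978 in Mod and 1029 to 1106 in Con. Con replicate 4 and 6-OHG replicate 2 were least like their groups in earlier work on these data. In Mod replicate 3 the liver markers other than Ttr summed to 41.8 FPKM, against 0.330 to 1.26 FPKM in the other 4 Mod libraries, 0.665 to 1.11 FPKM in 6-OHG and 45.2 to 62.0 FPKM in Con. Without Mod replicate 3, the number of the 10 genes called was 5 in Mod against Con, 0 in 6-OHG against Mod and 5 when 6-OHG was set against Con, as many as with it. Every Con library still held these markers, so the counts cannot tell whether liver transcripts bear on the comparisons with Con.

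After 24 h at 8000 m, Gclc, Nqo1, Gsr and Keap1 rose and Slc7a11 fell relative to Con, a call on 5 of the 10 genes at an adjusted p under 0.05 in limma. Of all genes tested, 23.8% were called in this comparison, 14% as higher and 9.81% as lower. The median log2 change of the 10 genes was 0.20, beside 0.01 for all genes tested. The Mod and Con libraries did not overlap for 6 of the 10 genes, the 5 called and Nfe2l2, beside 22.4% of all genes. Of the 3304 calls over all genes 58.7% were higher, and 40.6% were higher after each library was rescaled to the same FPKM sum. That rescaling left Gclc, Nqo1 and Slc7a11 called, while Keap1 (log2 change 0.18, adjusted p = 0.0839) and Gsr (0.23, adjusted p = 0.0715) were no longer called. Scaling by median of ratios and quantile normalization each left all 5 called. With these, 52.1% and 53.7% of the calls over all genes were higher. Since RNA came from whole tissue, fewer cells of a type and less RNA per cell cannot be told apart in these values.

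With 6-OHG against Mod, none of the 10 genes passed the limma test (0 called), where 15.3% of all genes were called, 6.98% as higher and 8.35% as lower. At an unadjusted p under 0.05 there were 2, Gclc and Slc7a11, both higher with 6-OHG, beside 30.7% of all genes. Of the 10 genes 1, Gclc, had groups that did not overlap, beside 15.9% of all genes. The median log2 change of the 10 genes was 0.07, beside -0.02 for all genes tested. Of the 2131 calls over all genes 45.5% were higher, and 77.7% were higher after rescaling to equal sums, a setting in which Gclc was called (log2 change 0.25, adjusted p = 0.0307). The share was 51.2% with scaling by median of ratios and 57.5% with quantile normalization. Gclc was called in both (adjusted p = 0.0355 and 0.0275).

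In 6-OHG against Con, Gclc, Nfe2l2, Gsr, Nqo1 and Gclm rose, 5 of the 10 genes and all in 1 direction. The share called among all genes was 30.7%, with 16.3% called as higher and 14.4% as lower. The libraries did not overlap for 6 of the 10 genes, beside 28.1% of all genes. Those 6 were Gclc, Nfe2l2, Gsr, Nqo1, Keap1 and Slc7a11, of which Slc7a11 alone was lower in 6-OHG. The median log2 change was 0.24, beside 0.00337 for all genes tested. The comparisons share libraries, so their values stand side by side and are not independent of each other.

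**Figure D1:**
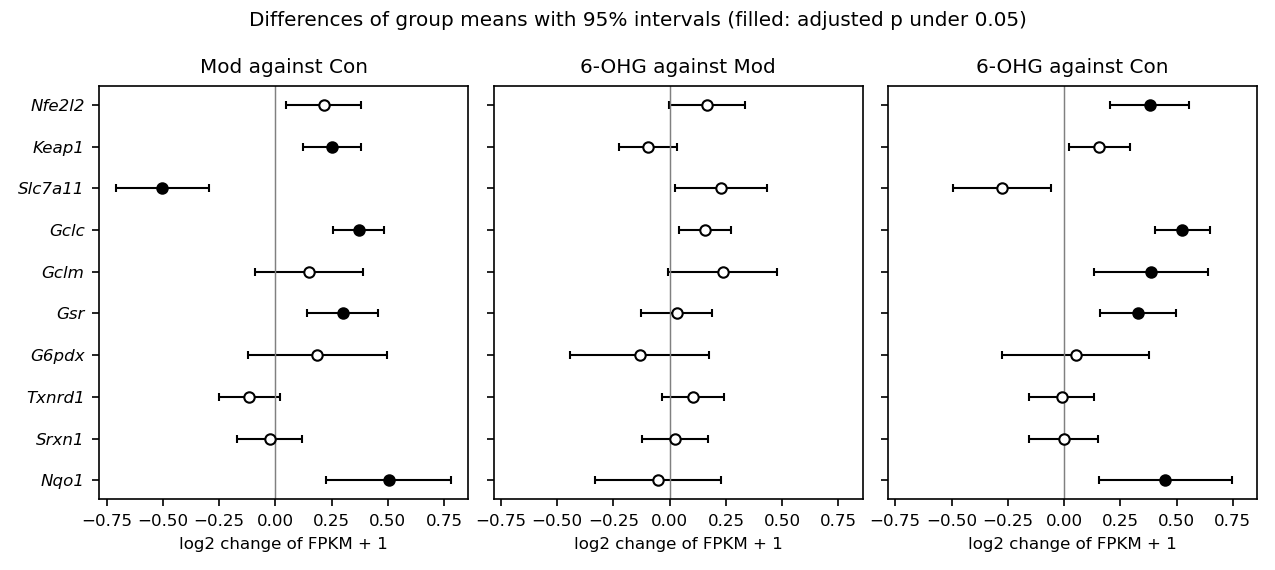
Log2 changes of FPKM + 1 with 95% intervals for the 10 genes (rows) in each comparison (panels), with filled points at an adjusted p under 0.05. Filled points number 5 in the left panel, 0 in the middle one and 5 in the right one, and Slc7a11 is the only filled point below 0.

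FPKM is scaled by gene length, so levels may be set beside each other, although the lengths that the authors used are not given. Srxn1 was the most abundant of the 10 in each group, at 30.1 ± 1.57 FPKM in 6-OHG (SD, n = 4), 29.6 ± 1.34 in Mod (n = 5) and 30.3 ± 3.20 in Con (n = 4). Gclc came next, then Keap1, and the ranges of these 3 genes did not overlap in any group. Keap1, Gclm, Gsr and G6pdx followed in an order in which each neighbour overlapped the next, with Txnrd1 below them and apart from its neighbour only in Mod. Nfe2l2 stood apart below Txnrd1 in each group. The bottom of the order differed between the groups. Nqo1 lay above Slc7a11 with no overlap in 6-OHG and in Mod, whereas in Con Slc7a11 had the higher mean and the ranges overlapped.

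**Figure D2:**
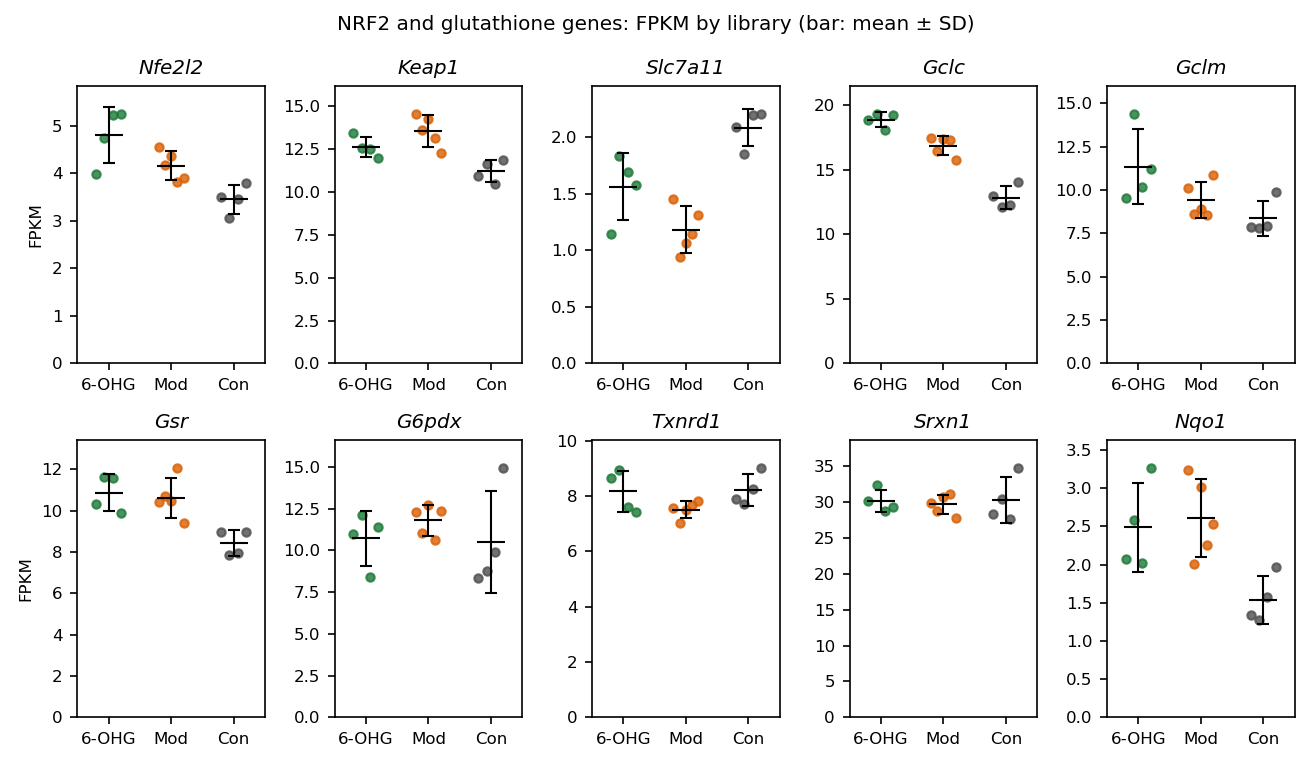
FPKM of each of the 10 genes (panels) in the 6-OHG, Mod and Con libraries (points), with the mean and SD of each group. Gclc runs from 18.1 to 19.3 FPKM in 6-OHG, 15.8 to 17.5 in Mod and 12.1 to 14.0 in Con, and Slc7a11 is lowest in Mod.

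Promoter sequences from RefSeq (build GRCm38.p6), from 250 bases before to 50 after a start, were matched for 8 of the 10 genes, with 10 promoters in all. Gclc and Gsr had no entry. They were searched on both strands for 2 forms of the antioxidant response element core, TGACNNNGC and TGAGNNNGC, which differ in the fourth letter and so cannot match at the same position of a strand. They were also searched for ACGTG, a form of the core of the hypoxia response element, and for no other form of it. Of 32851 promoters in the table, 12.4% hold the first form, 17.6% the second and 19.6% ACGTG. An antioxidant element core was found for 6 genes, Nfe2l2, Slc7a11, Gclm, G6pdx, Txnrd1 and Srxn1. A match is a description of letters and not evidence of binding. The stretches below are shown because they carry these letters in the factor itself, in a pair of genes of glutathione synthesis, and in Srxn1, which was at 27.7 to 34.8 FPKM in all libraries. Each reads 5′ to 3′ along the gene's strand, with the core in capitals.
Nfe2l2, chr2:75704855-75704913, minus strand: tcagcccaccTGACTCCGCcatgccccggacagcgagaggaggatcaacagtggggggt
Gclm, chr3:122245383-122245471, plus strand: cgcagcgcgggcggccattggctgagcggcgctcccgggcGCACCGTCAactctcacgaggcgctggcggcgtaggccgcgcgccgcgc
Slc7a11, chr3:50443662-50443750, minus strand: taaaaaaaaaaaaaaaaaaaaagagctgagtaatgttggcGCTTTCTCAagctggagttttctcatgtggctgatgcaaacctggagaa
Srxn1, chr2:152105326-152105523, plus strand: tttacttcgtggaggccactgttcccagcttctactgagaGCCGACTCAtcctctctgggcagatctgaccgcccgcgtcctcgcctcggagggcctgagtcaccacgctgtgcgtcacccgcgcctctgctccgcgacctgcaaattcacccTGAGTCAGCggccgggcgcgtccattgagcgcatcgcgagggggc

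The Nfe2l2 promoter holds the first form of the core as printed, beginning 240 bases before the start, and the Gclm promoter holds it on the opposite strand at 134 bases before. Slc7a11 holds the second form on the opposite strand at 97 bases before. Srxn1 holds the second form at both places printed, 158 bases before on the opposite strand and 45 bases before as printed, and the first form at 29 bases after the start. ACGTG was found in the promoters of Keap1, Gclm and G6pdx. Nqo1 held none of the 3 motifs in this window.

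Nfe2l2 (ENSMUSG00000015839, chr2:75675513-75704641 of GRCm38, minus strand) codes for NRF2. It stood at 4.00, 4.74, 5.23 and 5.25 FPKM in 6-OHG, 4.55, 4.18, 4.37, 3.82 and 3.90 in Mod, and 3.50, 3.06, 3.47 and 3.79 in Con. Both exposed groups lay wholly above Con, while 6-OHG and Mod overlapped. Against Con it rose in 6-OHG, by a log2 change of 0.38 (SE 0.08, adjusted p = 0.00424), and this call held in all 25 other settings in which Nfe2l2 was tested. For Mod against Con the change was 0.21 (SE 0.08, adjusted p = 0.0627), and the test was passed in 5 of 25 settings, among them without Con replicate 4 (adjusted p = 0.0458). For 6-OHG against Mod it was 0.17, with an interval of -0.00250 to 0.33 (adjusted p = 0.169).

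Keap1 (ENSMUSG00000003308, chr9:21229730-21239361, minus strand) codes for the protein that binds NRF2 and links it to a ubiquitin ligase. It stood at 13.4, 12.5, 12.5 and 12.0 FPKM in 6-OHG, 14.5, 13.6, 14.3, 13.1 and 12.2 in Mod, and 10.9, 11.6, 10.4 and 11.8 in Con. No library of either exposed group reached down to the highest Con library. Keap1 rose in Mod against Con (log2 change 0.25, SE 0.06, adjusted p = 0.00915). In 6-OHG against Con the change was 0.16 (adjusted p = 0.0753) and passed the test in 4 of 26 settings, among them a correction of each library for trends with exon length and GC (0.25, adjusted p = 0.00836). In 6-OHG against Mod it was -0.09, with an interval of -0.22 to 0.03.

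Slc7a11 (ENSMUSG00000027737, chr3:49892526-50443614, minus strand) codes for xCT, the transporter that brings in cystine, a source of the cysteine of glutathione, in exchange for glutamate. It was the least abundant of the 10 genes in the exposed groups. Its values were 1.14, 1.84, 1.69 and 1.58 FPKM in 6-OHG, 1.46, 0.938, 1.06, 1.14 and 1.32 in Mod, and 2.09, 1.85, 2.19 and 2.21 in Con. All Mod and all 6-OHG libraries lay below the lowest Con library, and 6-OHG replicate 1 lay inside the Mod range. Slc7a11 fell in Mod against Con, by 0.50 on the log2 scale (SE 0.10, adjusted p = 0.00260), which held in all 25 other settings. For 6-OHG against Con the log2 change was -0.27 (SE 0.10, adjusted p = 0.0545), and 6 of 25 settings called it, among them the one without 6-OHG replicate 2 (-0.33, adjusted p = 0.0350). For 6-OHG against Mod it was 0.23 (SE 0.10, adjusted p = 0.125). It was called without 6-OHG replicate 1 (0.31, adjusted p = 0.0431), and it came to 0.00686 after the correction for exon length and GC. The gene's annotated exons span 13922 bases, against 1553 to 7086 bases for the other 9 genes.

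Gclc (ENSMUSG00000032350, chr9:77754535-77794485, plus strand) codes for the catalytic subunit of glutamate-cysteine ligase, the rate-limiting enzyme of glutathione synthesis. It stood at 18.9, 19.3, 18.1 and 19.2 FPKM in 6-OHG, 17.5, 16.4, 17.4, 17.3 and 15.8 in Mod, and 12.9, 12.1, 12.2 and 14.0 in Con. The 3 groups did not overlap, with 6-OHG highest and Con lowest. Gclc had the smallest p of the 10 genes in all 3 comparisons. It rose by 0.37 on the log2 scale in Mod against Con (SE 0.05, adjusted p = 0.000458) and by 0.53 in 6-OHG against Con (SE 0.06, adjusted p = 6.01e-05), and both calls held in all 26 other settings. In 6-OHG against Mod the change was 0.16 (SE 0.05, adjusted p = 0.0659). That comparison was called in 5 of 26 settings, with adjusted p between 0.0275 and 0.0488 in those, among them all 3 other scalings and the one without Con replicate 4. Leaving out a Con library cannot move this log2 change and alters only the shared spread and the adjustment.

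Gclm (ENSMUSG00000028124, chr3:122245557-122270732, plus strand) codes for the modifier subunit, which makes the same enzyme more active at cellular substrate levels. It stood at 9.52, 14.4, 10.2 and 11.2 FPKM in 6-OHG, 10.1, 8.61, 8.91, 8.54 and 10.9 in Mod, and 7.87, 7.82, 7.94 and 9.88 in Con. Con replicate 4 lay inside the range of both exposed groups, and 6-OHG replicate 2 lay above all other libraries. Gclm rose in 6-OHG against Con (log2 change 0.39, SE 0.12, adjusted p = 0.0251) although the groups overlapped. This call was lost in 9 of 26 settings, among them those without 6-OHG replicate 2 (0.27, adjusted p = 0.0549), without Con replicate 1 (adjusted p = 0.0632), without Con replicate 2 (adjusted p = 0.0623) or without Con replicate 3 (adjusted p = 0.0595). The change was 0.15 in Mod against Con (interval -0.09 to 0.39, adjusted p = 0.359) and 0.23 in 6-OHG against Mod (interval -0.00565 to 0.48, adjusted p = 0.172).

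The ratio of the catalytic to the modifier transcript, Gclc over Gclm in FPKM, was 1.98, 1.34, 1.78 and 1.71 in 6-OHG, 1.72, 1.91, 1.95, 2.03 and 1.45 in Mod, and 1.64, 1.55, 1.54 and 1.42 in Con. The Con libraries lay within the range of 6-OHG, and 3 of the 4 lay within that of Mod. The widest spread was in 6-OHG, where replicate 2 had the lowest ratio of all 13 libraries.

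Gsr (ENSMUSG00000031584, chr8:33652523-33698163, plus strand) codes for glutathione reductase, which returns oxidized glutathione to its reduced form with NADPH. It stood at 10.3, 11.6, 11.6 and 9.89 FPKM in 6-OHG, 10.4, 10.7, 10.5, 12.1 and 9.40 in Mod, and 8.94, 7.85, 7.95 and 8.97 in Con. Every library of the exposed groups was above the highest Con library. Gsr rose in Mod against Con (log2 change 0.30, SE 0.07, adjusted p = 0.0112) and in 6-OHG against Con (0.33, SE 0.08, adjusted p = 0.00697). In 6-OHG against Mod the change was 0.03, with an interval of -0.13 to 0.19.

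G6pdx (ENSMUSG00000031400, chrX:74409483-74429194, minus strand) codes for glucose-6-phosphate dehydrogenase, the entry enzyme of the oxidative pentose phosphate pathway and a source of that NADPH. Its values were 11.0, 12.1, 8.38 and 11.4 FPKM in 6-OHG, 12.3, 11.0, 12.7, 10.6 and 12.3 in Mod, and 8.35, 8.74, 9.93 and 15.0 in Con. Con replicate 4 was the highest of the 13 libraries, and the other 3 Con libraries lay below all 5 Mod libraries. The log2 change of Mod against Con was 0.19 (SE 0.14, adjusted p = 0.381) and, without Con replicate 4, 0.35 (adjusted p = 0.0267). It was -0.13 in 6-OHG against Mod and 0.05 in 6-OHG against Con, with intervals of -0.44 to 0.18 and -0.27 to 0.38. Mice carry a retrogene copy, G6pd2, and how the authors' counting assigned reads shared by the pair is not given.

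Txnrd1 and Srxn1 belong to the thioredoxin branch. Txnrd1 (ENSMUSG00000020250, chr10:82833951-82897712, plus strand), the selenoprotein that reduces cytosolic thioredoxin with NADPH, ranged over 7.44 to 8.94 FPKM in 6-OHG, 7.01 to 7.80 in Mod and 7.70 to 9.02 in Con. Its log2 change was -0.12 in Mod against Con (interval -0.25 to 0.02, adjusted p = 0.213), 0.10 in 6-OHG against Mod and -0.01 in 6-OHG against Con. Srxn1 (ENSMUSG00000032802, chr2:152105516-152111376, plus strand), which codes for sulfiredoxin, the enzyme that restores over-oxidized peroxiredoxins, ranged over 28.7 to 32.3 FPKM in 6-OHG, 27.8 to 31.0 in Mod and 27.7 to 34.8 in Con. Its log2 change was -0.03 in Mod against Con (interval -0.17 to 0.12), 0.02 in 6-OHG against Mod (-0.12 to 0.17) and -0.00212 in 6-OHG against Con (-0.16 to 0.15). The groups overlapped for both genes in all 3 comparisons, and no setting called either gene.

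Nqo1 (ENSMUSG00000003849, chr8:107388225-107403206, minus strand) codes for NAD(P)H quinone dehydrogenase 1, which reduces quinones and is a widely used readout of NRF2. It stood at 2.08, 2.58, 2.02 and 3.27 FPKM in 6-OHG, 3.24, 2.01, 3.02, 2.26 and 2.53 in Mod, and 1.34, 1.28, 1.58 and 1.97 in Con. All exposed libraries lay above Con, with the lowest Mod library at 2.01 FPKM close to the highest Con library at 1.97. Nqo1 rose in Mod against Con (log2 change 0.50, SE 0.13, adjusted p = 0.0137), and the ratio of the mean FPKM was 1.69, higher than for any other of the 10 genes. That call was lost in 2 of 25 settings, with the replicate number as a block (adjusted p = 0.0516) and with the block and the correction together (adjusted p = 0.0565). It rose in 6-OHG against Con (0.45, SE 0.14, adjusted p = 0.0248), a call lost in 5 of 25 settings, among them those without Con replicate 1 (adjusted p = 0.0650), without Con replicate 2 (adjusted p = 0.0668) or without 6-OHG replicate 4 (adjusted p = 0.0709). In 6-OHG against Mod the change was -0.05, with an interval of -0.33 to 0.23.

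Across the 13 libraries, which share the group differences, the log2 values of Gclc followed those of Gsr (r = 0.86), Nfe2l2 (0.85), Nqo1 (0.79), Keap1 (0.69) and Gclm (0.69). Slc7a11 ran the other way from Keap1 (r = -0.80) and Gclc (-0.57). Txnrd1 had an r of -0.08 with Gclc and Srxn1 an r of 0.16. Among the genes tested other than predicted or unnamed loci, those most like Gclc were Brd8 (r = 0.98), Dnajc10 (0.97) and Insr (0.97). Those most like Slc7a11 were Ptprz1 (0.96), Mpdz (0.95) and Jam2 (0.95). Nfe2l2 was most like Itga6 (0.92), Kansl1l (0.90) and Arid4b (0.90), and Gsr was most like Ighmbp2 (0.93), Mau2 (0.93) and Greb1l (0.93). These values are descriptions over 13 libraries with no test.

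Among NRF2's regulators and partners other than the 10 genes, 4 of 16 tested rose and 3 fell in Mod against Con, 2 rose and 0 fell in 6-OHG against Mod, and 6 rose and 2 fell in 6-OHG against Con. After rescaling to equal sums, 2 rose and 3 fell in Mod against Con. For this list and those below, the shares of all genes called were 14% higher and 9.81% lower in Mod against Con. They were 6.98% and 8.35% in 6-OHG against Mod, and 16.3% and 14.4% in 6-OHG against Con. Maff, a small MAF protein with which NRF2 can pair, stood at 2.07, 3.62, 2.15 and 2.17 FPKM in 6-OHG, 3.85, 2.86, 3.91, 2.69 and 3.69 in Mod, and 0.265, 0.417, 0.315 and 0.644 in Con. It rose in Mod against Con (log2 change 1.64, SE 0.14, adjusted p = 7.73e-06) and in 6-OHG against Con (1.30, adjusted p = 7.89e-05). Its relative Mafg moved the other way. Mafg averaged 13.3 ± 1.39 FPKM in 6-OHG, 13.3 ± 0.656 in Mod and 18.5 ± 0.906 in Con, and it fell by 0.45 on the log2 scale in Mod against Con (adjusted p = 0.000502) and in 6-OHG against Con (adjusted p = 0.000584). Nfe2l1, which codes for the related factor NRF1, averaged 46.6 ± 1.06 FPKM in 6-OHG, 46.5 ± 1.10 in Mod and 56.4 ± 1.13 in Con, and fell in both comparisons with Con (-0.27 in each, adjusted p = 0.000600 for Mod and 0.000707 for 6-OHG). These 6 calls held in all other settings in which the genes were tested. Both rises in 6-OHG against Mod, Ep300 (0.33, adjusted p = 0.00182), a coactivator, and Btrc (0.29, adjusted p = 0.00870), a ubiquitin ligase subunit that can mark NRF2, were lost after the correction for exon length and GC (adjusted p = 0.0978 for Ep300 and 0.639 for Btrc). Ep300 also rose in 6-OHG against Con (0.25, adjusted p = 0.00437; 0.0693 after that correction), and Btrc fell in Mod against Con (-0.28, adjusted p = 0.00570).

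**Figure D3:**
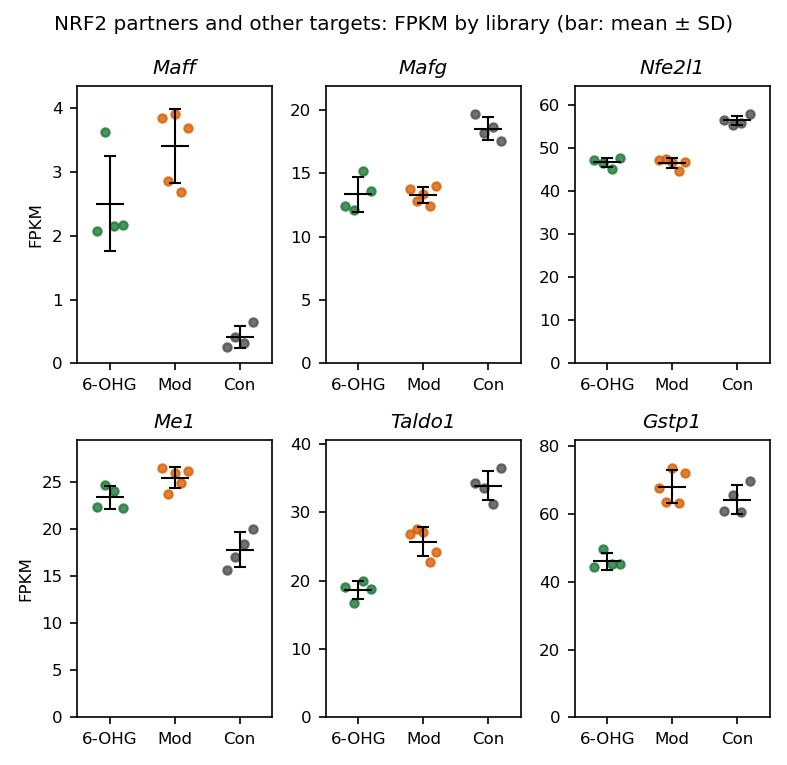
FPKM of Maff, Mafg, Nfe2l1, Me1, Taldo1 and Gstp1 (panels) in the 6-OHG, Mod and Con libraries (points), with the mean and SD of each group. Maff is at 2.07 to 3.62 FPKM in 6-OHG and 2.69 to 3.91 in Mod, above 0.265 to 0.644 in Con, while Gstp1 is lowest in 6-OHG.

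The other NRF2 targets had calls in both directions against Con. Of 33 tested, 6 rose and 3 fell in Mod against Con, where 14% of all genes were called higher and 9.81% lower. In 6-OHG against Mod 0 rose and 4 fell, beside 6.98% and 8.35% of all genes. In 6-OHG against Con 6 rose and 10 fell, beside 16.3% and 14.4%. The 4 falls in 6-OHG against Mod became 2 after rescaling to equal sums, and also 2 after the correction for exon length and GC. The 10 falls in 6-OHG against Con became 6 after quantile normalization. The list's median log2 change was 0.05 in Mod against Con, -0.14 in 6-OHG against Mod and -0.13 in 6-OHG against Con, beside the medians of all genes given above. Me1, the cytosolic malic enzyme, averaged 23.4 ± 1.21 FPKM in 6-OHG, 25.5 ± 1.12 in Mod and 17.8 ± 1.87 in Con, and rose in Mod against Con (0.50, adjusted p = 0.000284) and in 6-OHG against Con (0.38, adjusted p = 0.00184). Hmox1, which codes for the heme-degrading enzyme heme oxygenase 1 and was chosen after its values were seen, stood at 2.99, 4.39, 3.50 and 3.35 FPKM in 6-OHG, 3.52, 3.35, 3.15, 3.23 and 3.18 in Mod, and 2.14, 2.01, 2.08 and 2.66 in Con. It rose in Mod against Con (0.42, adjusted p = 0.00428) and in 6-OHG against Con (0.50, adjusted p = 0.00156). Ftl1, the ferritin light chain, averaged 118 ± 5.12 FPKM in 6-OHG, 143 ± 3.19 in Mod and 117 ± 5.61 in Con. It rose in Mod against Con (0.28, adjusted p = 0.00163) and fell in 6-OHG against Mod (-0.27, adjusted p = 0.00426). That fall was lost after rescaling to equal sums and after the correction for exon length and GC (-0.05, adjusted p = 0.611).

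Taldo1 and Gstp1 went down. Taldo1, transaldolase of the pentose phosphate pathway, averaged 18.6 ± 1.34 FPKM in 6-OHG, 25.7 ± 2.12 in Mod and 33.9 ± 2.17 in Con. It fell in Mod against Con (-0.39, adjusted p = 0.00213), in 6-OHG against Mod (-0.44, adjusted p = 0.00230) and in 6-OHG against Con (-0.83, adjusted p = 1.68e-05). Gstp1, a glutathione transferase, averaged 46.1 ± 2.49 FPKM in 6-OHG, 68.1 ± 4.80 in Mod and 64.3 ± 4.35 in Con. Its 6-OHG libraries lay below all others, and it fell in 6-OHG against Mod (-0.55, adjusted p = 0.00100) and in 6-OHG against Con (-0.47, adjusted p = 0.000398). Gstp1 and Ftl1 have near-identical copies in the mouse genome, among which reads may have been split. Prdx6, a peroxiredoxin that can use glutathione, averaged 20.6 ± 1.52 FPKM in 6-OHG, 22.8 ± 1.38 in Mod and 27.7 ± 2.08 in Con, and fell in Mod against Con (-0.27, adjusted p = 0.0115; 0.0759 with the replicate block) and in 6-OHG against Con (-0.41, adjusted p = 0.00102).

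In synthesis, transport and breakdown of glutathione beyond Gclc, Gclm and Slc7a11, 2 of 17 rose and 2 fell in Mod against Con, 0 were called in 6-OHG against Mod, and 1 rose and 4 fell in 6-OHG against Con. Slc1a4, a carrier of small neutral amino acids, averaged 17.6 ± 0.761 FPKM in 6-OHG, 20.0 ± 1.60 in Mod and 15.8 ± 0.547 in Con and rose in Mod against Con (0.32, adjusted p = 0.00254). Cbs, the first enzyme of the route that makes cysteine from homocysteine, averaged 3.63 ± 0.592 FPKM in 6-OHG, 4.04 ± 0.671 in Mod and 2.75 ± 0.275 in Con and rose in Mod against Con (0.42, adjusted p = 0.0149). Lap3, an aminopeptidase, averaged 11.0 ± 1.21 FPKM in 6-OHG, 12.3 ± 0.864 in Mod and 15.8 ± 1.39 in Con, and fell in Mod against Con (-0.34, adjusted p = 0.00798) and in 6-OHG against Con (-0.49, adjusted p = 0.00102). Gja1, which codes for a channel protein that is also among the astrocyte markers, fell in 6-OHG against Con (-0.58, adjusted p = 0.0140). Its fall in Mod against Con (-0.46, adjusted p = 0.0401) was lost in 13 of 26 settings, among them leaving out any 1 Con library (adjusted p between 0.0522 and 0.0946).

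Among enzymes that use glutathione, 3 of 27 rose and 2 fell in Mod against Con, 0 rose and 7 fell in 6-OHG against Mod, and 0 rose and 7 fell in 6-OHG against Con. The median of their log2 changes was -0.22 in 6-OHG against Mod, beside -0.02 for all genes. The 7 falls in 6-OHG against Mod became 2 after rescaling to equal sums, which also left 0 of the 3 rises in Mod against Con, and 3 after the correction for exon length and GC. The lists share genes, so their counts are not independent of each other. Gstp1 is also counted among the other NRF2 targets, as are Prdx6 of the thioredoxin list and Me1 and Taldo1 of NADPH supply. Glrx3, a glutaredoxin that carries iron-sulfur clusters, averaged 9.22 ± 0.619 FPKM in 6-OHG, 11.2 ± 0.924 in Mod and 13.8 ± 0.877 in Con, and fell in Mod against Con (-0.28, adjusted p = 0.00969) and in 6-OHG against Con (-0.53, adjusted p = 0.000240). It also fell in 6-OHG against Mod (-0.25, adjusted p = 0.0262), a call lost in 8 of 26 settings, among them those without Mod replicate 3 (0.0638) or 5 (0.0573) and without 6-OHG replicate 1 (0.0762) or 3 (0.0605).

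In the thioredoxin system beyond Txnrd1 and Srxn1, 2 of 20 rose and 2 fell in Mod against Con, 1 rose and 4 fell in 6-OHG against Mod, and 3 rose and 8 fell in 6-OHG against Con. After rescaling to equal sums, 1 of 20 rose and 4 fell in Mod against Con, and 1 rose and 1 fell in 6-OHG against Mod. The correction for exon length and GC left 0 rises and 2 falls in 6-OHG against Mod. After quantile normalization the 8 falls in 6-OHG against Con became 4. Sesn1, a sestrin, averaged 18.0 ± 1.97 FPKM in 6-OHG, 16.9 ± 1.41 in Mod and 12.2 ± 0.921 in Con, and rose in Mod against Con (0.44, adjusted p = 0.00200) and in 6-OHG against Con (0.53, adjusted p = 0.000669). Prdx2, an abundant peroxiredoxin of neurons, averaged 33.8 ± 1.83 FPKM in 6-OHG, 40.8 ± 1.72 in Mod and 48.7 ± 1.43 in Con, and fell in Mod against Con (-0.25, adjusted p = 0.00415) and in 6-OHG against Con (-0.52, adjusted p = 5.36e-05). Its fall in 6-OHG against Mod (-0.27, adjusted p = 0.00510) was lost after rescaling to equal sums (adjusted p = 0.113) and with the block and the correction together (adjusted p = 0.143). Txn2, the mitochondrial thioredoxin, averaged 11.5 ± 0.386 FPKM in 6-OHG, 13.7 ± 0.682 in Mod and 15.2 ± 0.986 in Con and fell in 6-OHG against Con (-0.37, adjusted p = 0.000586). It also fell, by 0.23, in 6-OHG against Mod (adjusted p = 0.0151), a call lost after rescaling to equal sums (adjusted p = 0.163) and with the block (adjusted p = 0.0710).

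**Figure D4:**
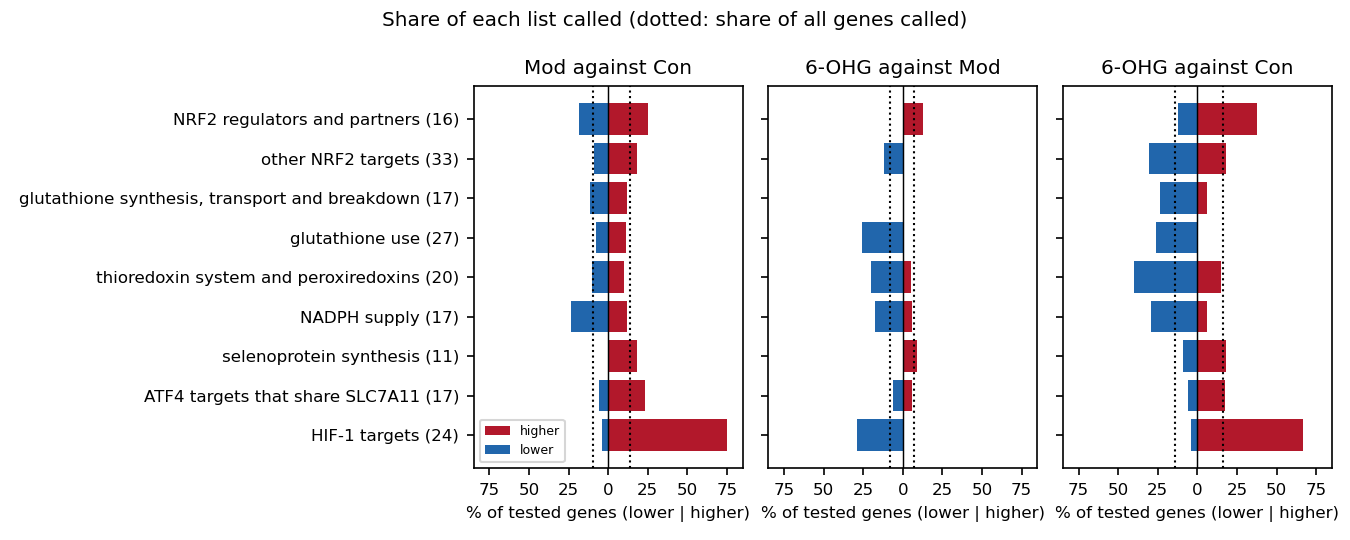
Share of the tested genes of each list called higher (right of 0) or lower (left of 0) at an adjusted p under 0.05 in each comparison (panels), with the share of all genes called as dotted lines. Of the HIF-1 targets 18 of 24 are called higher in Mod against Con, whereas 6 of 33 other NRF2 targets are.

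Of 17 genes of NADPH supply other than G6pdx, 2 rose and 4 fell in Mod against Con, 1 rose and 3 fell in 6-OHG against Mod, and 1 rose and 5 fell in 6-OHG against Con. After rescaling to equal sums, 1 rose and 1 fell in 6-OHG against Mod. The correction for exon length and GC left 0 rises and 1 fall in that comparison. Rpe, the epimerase of the pentose phosphate pathway, averaged 4.73 ± 0.568 FPKM in 6-OHG, 4.98 ± 0.582 in Mod and 7.51 ± 0.821 in Con, and fell in Mod against Con (-0.51, adjusted p = 0.00197) and in 6-OHG against Con (-0.57, adjusted p = 0.00100). Of 11 genes of selenoprotein synthesis, on which thioredoxin reductase depends, 2 rose in Mod against Con, 1 rose in 6-OHG against Mod, and 2 rose and 1 fell in 6-OHG against Con. After rescaling to equal sums, 1 rose and 1 fell in Mod against Con. The rise in 6-OHG against Mod was lost after the correction for exon length and GC. Sephs1, a homolog of selenophosphate synthetase, averaged 5.92 ± 0.317 FPKM in 6-OHG, 5.92 ± 0.247 in Mod and 4.94 ± 0.252 in Con, and rose in Mod against Con (0.22, adjusted p = 0.00843; log2 change 0.16, adjusted p = 0.146, after rescaling to equal sums) and in 6-OHG against Con (0.22, adjusted p = 0.00884).

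Slc7a11 is also a target of ATF4, the factor of the amino acid response, and 4 of 17 other ATF4 targets rose and 1 fell in Mod against Con. In 6-OHG against Mod 1 rose and 1 fell, and 0 were called after the correction for exon length and GC. In 6-OHG against Con 3 rose and 1 fell. After rescaling to equal sums 1 rose and 1 fell in Mod against Con. The fall was Phgdh, the first enzyme of serine synthesis, at 4.64 ± 0.729 FPKM in 6-OHG, 6.38 ± 0.930 in Mod and 11.3 ± 1.47 in Con (log2 change -0.74 in Mod against Con, adjusted p = 0.000880, and -1.12 in 6-OHG against Con, adjusted p = 7.25e-05). The rises in Mod against Con included Psph (0.36, adjusted p = 0.00998), Shmt2 (0.27, adjusted p = 0.0251) and Sesn2 (0.37, adjusted p = 0.0256). These calls were lost in 2 of 25, 10 of 26 and 9 of 25 settings. Those in 6-OHG against Con included Sesn2 (0.52, adjusted p = 0.00451) and Vldlr (0.29, adjusted p = 0.00607). Phgdh was also the lower call in 6-OHG against Mod (-0.39, adjusted p = 0.0415), which was lost in 14 of 26 settings, among them leaving out any 6-OHG library but replicate 2 (adjusted p between 0.0609 and 0.116). HIF-1 targets, the usual genes of low oxygen, were called in larger share, with 18 of 24 higher and 1 lower in Mod against Con, 0 higher and 7 lower in 6-OHG against Mod, and 16 higher and 1 lower in 6-OHG against Con. The 7 lower calls became 3 after rescaling to equal sums. Their median log2 change in Mod against Con was 0.59, beside 0.20 for the 10 genes.

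Markers of other cell types were followed in the same libraries, and some of their lists had calls. Of all genes tested, 14% were called higher and 9.81% lower in Mod against Con. The shares were 6.98% and 8.35% in 6-OHG against Mod, and 16.3% and 14.4% in 6-OHG against Con. The endothelial markers summed to 59.0 to 84.2 FPKM in 6-OHG, 65.2 to 78.1 in Mod and 49.6 to 63.2 in Con, with 5 of 9 tested called higher and 2 lower in Mod against Con. The calls in 6-OHG against Con were 6 higher and 2 lower. Markers of oligodendrocyte precursors summed to 34.1 to 58.9 FPKM in 6-OHG, 46.7 to 72.6 in Mod and 83.5 to 99.6 in Con, with 3 of 6 called lower in Mod against Con and 5 of 6 in 6-OHG against Con. Microglial markers summed to 78.1 to 109 FPKM in 6-OHG, 93.2 to 113 in Mod and 115 to 131 in Con, with 2 of 11 called lower in Mod against Con and 7 of 11 in 6-OHG against Con. After the correction for exon length and GC the 7 became 4. Astrocyte markers overlapped in all groups, at 514 to 672 FPKM in 6-OHG, 540 to 666 in Mod and 546 to 679 in Con, with 1 of 12 called higher and 2 lower in Mod against Con. For 6-OHG against Con 1 was called higher and 3 lower. Neuron markers in Mod, given above, lay wholly below those in Con, with 2 of 11 called lower in Mod against Con and 1 of 11 called higher in 6-OHG against Mod. That higher call was lost after the same correction. Oligodendrocyte markers overlapped between groups, at 757 to 1392 FPKM in 6-OHG, 931 to 2135 in Mod and 1345 to 1788 in Con, with 3 of 10 called lower in 6-OHG against Con and a median log2 change of -0.49. Erythrocyte markers summed to 40.9 to 176 FPKM in 6-OHG, 109 to 520 in Mod and 108 to 357 in Con. Their median log2 change was -1.30 in 6-OHG against Mod and -1.35 in 6-OHG against Con, with 1 of 5 called lower in each. The call in 6-OHG against Mod was lost after the correction for exon length and GC. Markers of pericytes and smooth muscle summed to 52.0 to 66.1 FPKM in 6-OHG, 57.9 to 70.1 in Mod and 59.1 to 83.5 in Con, with 3 of 7 called higher and 2 lower in Mod against Con. Between 6-OHG and Con 3 were called higher and 3 lower. Markers of choroid plexus and ependyma, 5 of 11 of them tested, summed to 7.63 to 366 FPKM in 6-OHG, 50.7 to 258 in Mod and 288 to 703 in Con. Of them 2 were called lower in 6-OHG against Con, and 1 after the correction for exon length and GC. Ttr made up most of the group means of this sum, averaging 174 FPKM in 6-OHG, 197 in Mod and 402 in Con. The next marker, Clic6, averaged 2.05, 2.38 and 2.80 FPKM. Of 6 liver markers tested, 5 were called lower when either exposed group was set against Con, and Fabp1 among them was at 0 in 6-OHG. Meningeal fibroblast markers overlapped in all groups, at 15.5 to 34.8 FPKM in 6-OHG, 19.2 to 27.9 in Mod and 16.6 to 35.2 in Con. Of 5 tested, 1 was called lower in each comparison with Con, with a median log2 change of -0.34 for Mod and -0.28 for 6-OHG. Of these lists no other marker had a group mean of 0. The part of these shifts in the results for the 10 genes was not tested.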

How the data were processed

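Per the labels, RNA of mouse brain was extracted with Trizol and read as pairs on an Illumina NovaSeq, in 13 libraries. The deposited table holds FPKM values that the authors computed, 1 column a library. The submitters' processing notes name featureCounts 1.5.0-p3, StringTie 2.1.6, HISAT2 2.2.1, cutadapt 1.9, edgeR, DESeq2 and FastQC, and the builds GRCm38 and mm10. Their roles, the annotation release and the strand setting are not given in the sources used here.

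Symbols, coordinates and exon lengths came from GENCODE M21 on GRCm38, which matched 37499 of 37636 gene IDs and left 137. Genes with at least 1 FPKM on average, 13905 in number, were tested on log2(FPKM + 1), a scale that understates changes of low genes. A mean for each group was fitted over all 13 libraries in limma 3.58.1 (R 4.3.3, moderated variances with a trend), for 3 comparisons. Benjamini-Hochberg adjustment covered all genes tested, calls were made under 0.05, and intervals are at 95%. The procedure was tested on simulated data.

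The 10 genes, the lists and the tests were chosen with earlier results of these data known. Beyond the 10, genes named are the called genes with the smallest p in each list, up to 3 per comparison, of which the text gives a selection. Also named are the 3 genes most like each of 4 of the 10, those with the smallest p. Predicted or unnamed loci were left out of that likeness. An exception is marked. The settings tried beside these were a pseudocount of 0.1, no filter or one at 5 FPKM, 3 scalings (equal sums, median of ratios, quantile), robust moderation, sample weights, fits of 2 groups, a block for replicate number, correction for exon length and GC, and leaving out libraries. Replicate number 5 occurs only in Mod, so the block takes that library out of the estimates.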

Additional observations from a re-analysis of the deposited data

Results flagged for a closer look

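A library apart from the rest of its group was looked for in 147 sets of a gene or marker sum and a group, and 5 were found; chance gives such a flag in about 1 of 20 groups. Gclm in Con replicate 4 was 9.88 FPKM, above 7.82 to 7.94 FPKM in the other 3 Con libraries. Maff in 6-OHG replicate 2 was 3.62 FPKM, above 2.07 to 2.17 FPKM in the other 3 6-OHG libraries. Phgdh in 6-OHG replicate 1 was 3.55 FPKM, below 4.86 to 5.09 FPKM in the others. The neuron markers in Con replicate 4 summed to 1029 FPKM, below 1095 to 1106 FPKM in the other Con libraries. The liver markers other than Ttr in Mod replicate 3 summed to 41.8 FPKM, above 0.330 to 1.26 FPKM in the other Mod libraries.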

How the results depend on the processing

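Among the 10 genes, the calls in Mod against Con on Gclc and Slc7a11, and those in 6-OHG against Con on Gclc, Gsr and Nfe2l2, held in all settings in which the gene was tested. Settings share libraries, and leaving out a library of the group not compared cannot move the log2 change. Tallies of settings are thus not counts of independent results. With 1 library left out, 5 to 7 of the 10 genes were called in Mod against Con, 0 to 1 in 6-OHG against Mod and 3 to 5 in 6-OHG against Con, and over all genes 2382 to 3653, 1357 to 2345 and 3427 to 4238. A filter at 5 FPKM, which leaves Nfe2l2, Slc7a11 and Nqo1 untested, gave 3, 1 and 3 of the 10 and, over all genes, 2061 between Mod and Con and 2663 between 6-OHG and Con. With no filter 3 of the 10 were called in 6-OHG against Con. Rescaling to equal sums called 3 between Mod and Con and 1 between 6-OHG and Mod, and the other 2 scalings also gave 1 in 6-OHG against Mod. Without Con replicate 4 and 6-OHG replicate 2 together, 7, 0 and 5 were called. The correction for exon length and GC gave 887 genes in 6-OHG against Mod, against 2131. Deviations of same-numbered libraries from their group means had r of -0.48 to 0.35, with both signs. These values cannot tell whether the numbers pair the libraries. Number 5 occurs only in Mod, so a block for replicate number also takes Mod replicate 5 out of the estimates. With the replicate number as a block, 2039 genes were called in Mod against Con, 846 in 6-OHG against Mod, and 3 of the 10 in 6-OHG against Con. With block and correction together, 2126 genes were called in the first of these and 20 in the second. Block and correction together also ended the falls of Gstp1 (adjusted p = 0.0768) and Taldo1 (0.101) in 6-OHG against Mod. The cause of these shifts was not tested. The depth is unknown, which limits the low values of Slc7a11 and Nqo1 above all.

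Small changes that never passed the test turned sign. In Mod against Con, Srxn1 was 0.0346 with sample weights and 0.0410 without both libraries, and it ran from -0.0649 to 0.0410 with 1 library left out. In 6-OHG against Mod, rescaling gave 0.000285 for Keap1 and 0.0180 for Nqo1; correction for exon length and GC gave 0.0556 for Nqo1, and 0.0464 with the block; the block gave -0.00838 for Gsr, sample weights -0.00427 for Srxn1, and leaving out both libraries -0.000734 for Gsr and -0.00998 for Srxn1. In 6-OHG against Con, Srxn1 was 0.0269 with rescaling, 0.0805 with quantile normalization, 0.0303 with sample weights, 0.0954 with that correction and 0.0311 without both libraries, and Txnrd1 was 0.0164 with rescaling. With 1 library left out, 6-OHG against Mod ran from -0.156 to 0.0106 for Nqo1, -0.00838 to 0.0740 for Gsr and -0.00998 to 0.0449 for Srxn1, and 6-OHG against Con from -0.0361 to 0.221 for G6pdx, -0.0509 to 0.0301 for Txnrd1 and -0.0419 to 0.0641 for Srxn1.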
